A study of Drosophila melanogaster with 6 samples.

Results

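The genes described here encode subunits of the proteasome, taken from the array annotation by name. A gene was included when its name began with Prosalpha, Prosbeta, Rpn or Rpt, or with Pros followed by a digit, or was Mov34 or Dox-A2, and the transcription factor gene pros was not included. This gave 43 genes out of 13171 genes named on the arrays, of which 32 carried such a name in the authors' table and 11 only in the UO files. Under current symbols, 29 of the 43 are broadly used subunits, 13 of the core particle and 16 of the regulatory particle, and 14 are copies of such subunits. Prosbeta4, Rpt5, Rpn13 and Sem1 are subunits whose names on the arrays fell outside the rule, and they are given separately.

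The proteasome is the protease that degrades proteins marked with ubiquitin. Its core particle is a barrel of stacked rings, in which the outer alpha rings gate the channel and the inner beta rings carry the proteolytic sites. The regulatory particle caps the barrel, with a base of Rpt ATPases and large Rpn scaffolds that unfolds the substrate, and a lid that holds the deubiquitinase Rpn11 and removes the ubiquitin chain. Several Drosophila subunits have copies named T or R after the parent gene, a number of which are known to be used in the male germline.

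RNA decay was measured by TU-decay, in which 4-thiouridine tags newly made RNA during a pulse and the purified tagged RNA is followed through a chase with unlabelled uridine. All 6 samples were tagged RNA from pooled whole embryos of a wild-type background at stages 12 to 15, carrying the UAS-T.g.UPRT transgene without a GAL4 driver, pulsed with 1 mM 4-thiouridine for 1 h at 30 °C. In the U+actD series the chase held 10 mM uridine together with actinomycin D, which blocks transcription, and in the UO series it held 10 mM uridine alone. A single array was hybridised for the pulse, the 1 h chase and the 3 h chase of either series. No group held replicates, so the 2 series stood in for replicates of the time course. For changes over the chase, p-values measure only the spread between the 2 series. The slope test has another error, given with it.

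The U+actD arrays were brighter than the UO arrays, with median net signals (foreground minus local background, in scanner units) of 162 to 1276 against 50 to 71. In the UO files the local background was 0 for 46.0% to 54.7% of spots, against 0% in U+actD. For those spots the net signal was the foreground alone. The background threshold, set where 95% of the 153 negative control spots lay below it, was 108 to 354 on the U+actD arrays and 50 to 54 on the UO arrays. Of 28 marker genes of 8 embryonic cell types on the arrays, 26 were above background on both pulse arrays. Of 4 testis markers (topi, can, bam and Mst87F) none was above on both, but each was on 1 of them. At the U+actD pulse can, bam and Mst87F had net signals of 766.5, 575 and 503, with a threshold of 354. At the UO pulse topi had 159, with a threshold of 51. In the table that the authors deposited, U+actD values were the scanner signals multiplied by 1 factor per array, but the UO columns were not the UO scanner signals. Signal levels had a Spearman's rho of 0.88 at the pulse, 0.92 at 1 h and 0.88 at 3 h between the 2 UO sources, over 9540 to 9595 probes. Changes relative to the median gene had a Spearman's rho of -0.19 at 1 h and -0.11 at 3 h between the UO table and the UO scanner files, over 7779 genes that are not independent replicates. Which of these sources holds the labelled UO arrays was not settled, so UO values are given from both and named UO scanner and UO table.

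All 29 broadly used subunits were above background on all 6 arrays. At the pulse their spike-in scaled signals were 3100 to 58938 in U+actD, with a median of 21968 against 6523 for all 9671 genes tested. Those of the UO scanner files were 399 to 7875, with a median of 2727 against 316 over the same genes. Probes differ in brightness, so these signals do not rank the subunits by abundance. Prosbeta3, a beta ring subunit without a proteolytic site, was the dimmest in U+actD, and Rpn7, a lid scaffold subunit, was the dimmest in UO. The brightest were the ATPase Rpt6 in U+actD and the lid scaffold subunit Rpn3, listed as Dox-A2, in UO.

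**Figure D1:**
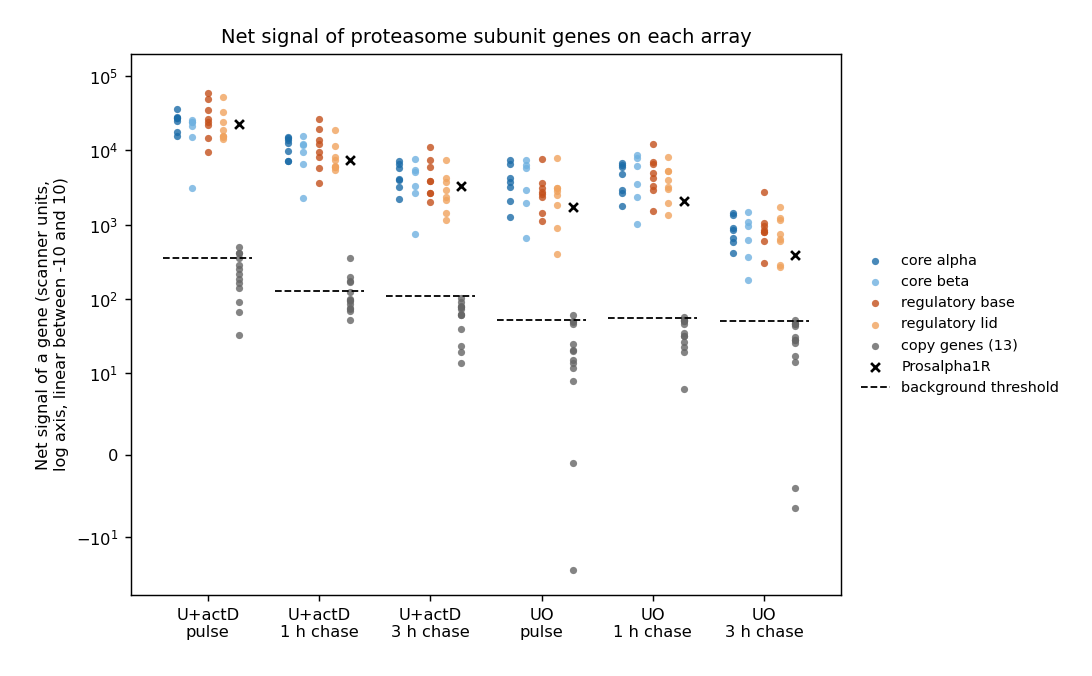
Net signal (scanner units, log axis that is linear near 0) of each proteasome subunit gene on each array, as the mean over its probes, with core and regulatory subunits coloured by ring or subcomplex, copy genes in grey, Prosalpha1R as a cross, and the background threshold of the array as a dashed line. All 29 broadly used subunits lie above the line on all 6 arrays, whereas the 13 grey copies lie near or below it.

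By the 3 h chase tagged RNA of every broadly used subunit was lower than at the pulse in both series. After scaling on spike-in transcripts, the median subunit kept 33.3% of its pulse signal at 1 h and 15.4% at 3 h in U+actD. In the UO scanner files it kept 61.5% at 1 h and 8.96% at 3 h. By the authors' table it kept 80.8% and 27.4% in U+actD, and 100.1% and 24.6% in UO. Before scaling, the median net signal of the subunits in the UO scanner files was 2899 at the pulse, 4250 at 1 h and 797.5 at 3 h. That median thus rose at 1 h, and the loss to 61.5% came with the spike-in factor of 0.408. The authors' U+actD values are the same signals times other factors, without some spots, so the percentages depend on the scale. In the limma model over both series, with Benjamini-Hochberg adjustment over all 9671 genes, all 31 members tested were lower at 3 h, where 98.6% of all genes were called lower and 0.0207% higher. Their estimates on the log2 scale ran between -3.65 for Prosbeta5 and -2.64 for Prosbeta7 among the subunits (SE 0.70 each). The largest adjusted p of a subunit was 0.000233 by limma. The SE was the same for every member, at 1 h as at 3 h, because limma used a single variance pooled over genes. No member's own spread between the series entered these p-values. The subunits' median of -3.01 lay beside -3.00 for all genes. With the 75th percentile of each array as the scale, or without the series block, 0 members were called lower or higher, and 0 of all 9671 genes. The 75th percentile scale takes out a decline shared by most genes, so it could not have shown this decline.

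At the 1 h chase no member passed the test by limma on the scanner signals, against 0.465% of genes called lower, and 4 of 31 members were lower at an unadjusted p under 0.05, where 31.3% of all genes were. On the values of the authors' table, 29 of 30 members were lower at 3 h, where 94.8% of 7902 genes were called lower and 0.0506% higher. The exception was Prosbeta2, which carries the trypsin-like site, with an estimate of -0.76 ± 0.32 (SE) and an adjusted p of 0.0540 by limma. That table holds only the dimmer of its 2 probes.

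**Figure D2:**
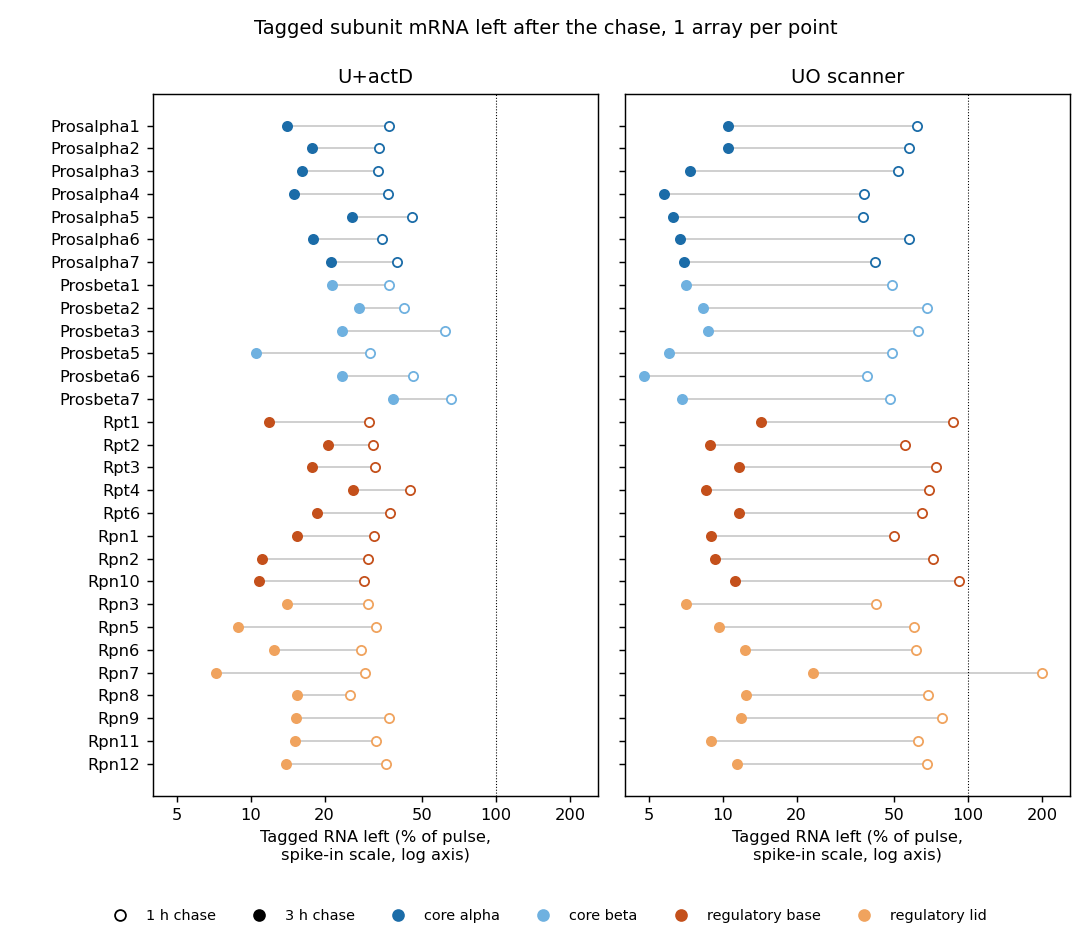
Tagged RNA of the 29 broadly used subunits left at the 1 h chase (open) and the 3 h chase (filled), as a percentage of the pulse on the spike-in scale (log axis), in U+actD on the left and in the UO scanner files on the right, with 1 array behind each point. In U+actD the core beta subunits other than Prosbeta5 lie toward the right, up to 37.9% for Prosbeta7 at 3 h, while in the UO scanner files core subunits lie left of most regulatory subunits and Rpn7 exceeds its pulse level at 1 h.

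Relative to the median gene of each array, most subunits lost tagged RNA more slowly in U+actD. The relative change at 3 h was above 0 for 27 of 29 subunits in U+actD, against 58.1% of all genes, and its median was 0.68 for the subunits and 0.19 for all genes (log2). In the UO scanner files it was above 0 for 2 of 29 subunits, against 55.8% of all genes, and its median was -0.57 for the subunits and 0.13 for all genes. In the UO table it was above 0 for 23 of 29 subunits, against 55.2% of all genes, with medians of 0.38 and 0.09. The direction for UO therefore depended on the source of its values.

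The same split was present at 1 h. In U+actD 28 of 29 subunits had a relative change above 0, against 53.7% of all genes, with a median of 0.27. Of the UO scanner values, 7 of 29 were above 0, against 40.4% of all genes, with a median of -0.16. By the UO table, 28 of 29 were, against 51.5% of all genes, with a median of 0.61.

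Brightness moved with these values. In the UO scanner files 26 of the 29 subunits were among the brightest 25% of genes at the pulse, and the median relative change at 3 h was -0.49 over all genes of that class, against 1.21 over the dimmest 25%. The median of the subunits in the bright class was -0.57. In U+actD the brightest 25% held 18 subunits with a median of 0.72, where all genes of the class had -0.12. For the UO table the brightest 25% also held 18 subunits with a median of 0.36, where all genes of the class had 0.01. The part of brightness in the UO scanner values was not tested.

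Over both series no member differed from the median gene by limma, at 1 h, at 3 h or between the chases, and on the scanner signals 0% of genes were called in either direction. At an unadjusted p under 0.05, 1 member was higher at 3 h, the copy Rpt6R, whose signals lay at background, against 10.5% of all genes. The 29 estimates at 3 h had a median of 0.14 against 0.15 for all genes, and a median SE of 0.45. In the authors' table, where 1.47% of genes were called higher and 0.127% lower, no member was called at 3 h, 9 of 30 members were higher at an unadjusted p under 0.05, against 15.6% of all genes, and the subunits' median estimate was 0.58 against 0.09. The smallest adjusted p there was 0.0729, for Prosbeta2, with an estimate of 1.75 ± 0.33 (SE). The authors' table holds only 1 of the 2 Prosbeta2 probes. On the scanner signals that probe had a relative change at 3 h of 2.06 in U+actD and -0.08 in UO. The brighter probe, absent from the table, had 0.98 and -1.26.

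Core subunits stood above regulatory subunits in U+actD. At 3 h the median relative change was 1.15 for the 13 core subunits and 0.60 for the 16 regulatory subunits, a difference of 0.55, and 11 core subunits exceeded the regulatory median while 1 regulatory subunit, Rpt4, exceeded the core median. At 1 h the medians were 0.41 and 0.21. In the UO scanner files the order was turned, with medians at 3 h of -0.93 for core and -0.23 for regulatory subunits, a difference of -0.71. There all 13 core subunits lay below the regulatory median and all 16 regulatory subunits lay above the core median, although the ranges overlapped (core -1.47 to -0.33, regulatory -0.90 to 0.82). In the UO table the particles did not separate at 3 h, with medians of 0.38 and 0.41, and core stood higher at 1 h, with 0.67 and 0.46.

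The core and regulatory medians of pulse signal were 21618 and 22949 in U+actD, and 3038 and 2407 in the UO scanner files. Across the 29 subunits, which share the arrays, the UO pulse signal and the UO scanner change at 3 h had a Spearman's rho of -0.46, and the corresponding rho in U+actD was -0.12. The part of signal in the difference between the particles was not tested. Subunits of a particle are not replicates, so no test of core against regulatory was made.

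**Figure D3:**
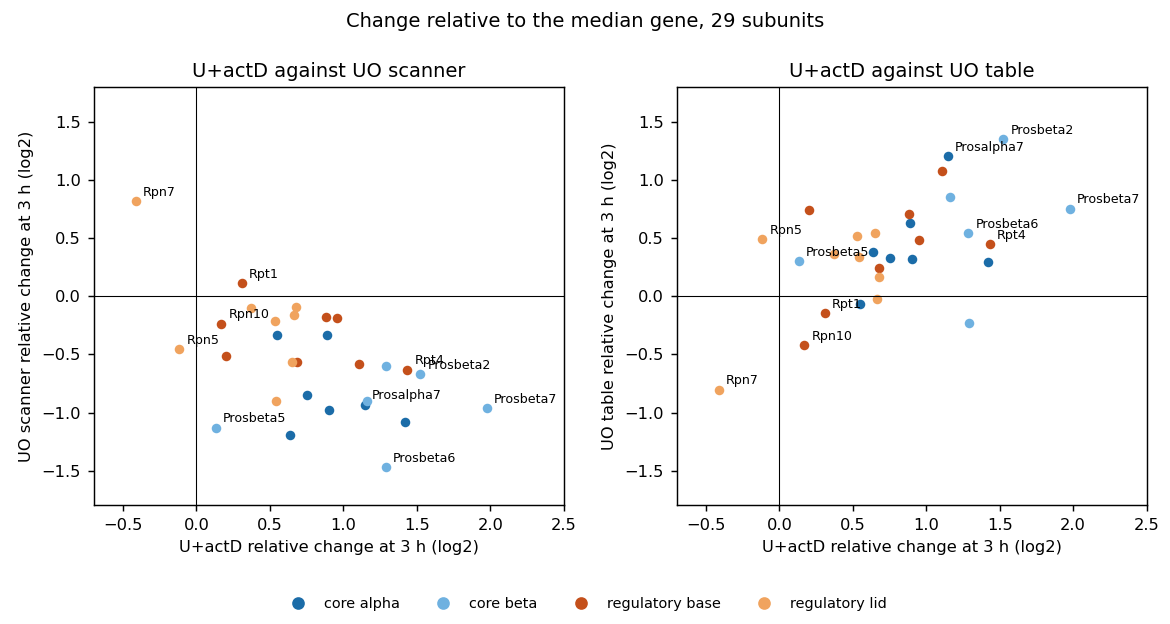
Relative change at 3 h (log2, each array centred on its median gene) of the 29 broadly used subunits, with U+actD on the horizontal axis and UO on the vertical axis, from the UO scanner files on the left and from the UO table on the right. Against the scanner files the points run downward, from Rpn7 at -0.41 and 0.82 to Prosbeta7 at 1.98 and -0.96, and against the table they run upward, from Rpn7 at -0.41 and -0.80 to Prosbeta7 at 1.98 and 0.75.

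Within the core, the 7 alpha ring subunits had a median relative change at 3 h of 0.89 in U+actD, -0.93 in the UO scanner files and 0.33 in the UO table. Spike-in scaled signals of Prosalpha7 were 24324 at the pulse, 9597 at 1 h and 5186 at 3 h in U+actD, and 5938, 2478 and 413 in the UO scanner files. Those of Prosalpha2 were 17724, 5895 and 3164 in U+actD, and 1263, 728 and 133 in UO. Those of Prosalpha4 were 14323, 5204 and 2147 in U+actD, and 2441, 923 and 141 in UO.

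These 3 subunits had the median, highest and lowest estimates of the alpha ring over both series. Each declined at both chases in both series, and Prosalpha4 and Prosalpha7 kept less at 1 h in UO relative to the median gene (-0.87 and -0.72) than Prosalpha2 did (-0.26). The alpha subunit with the highest U+actD value was Prosalpha5, which kept 25.8% at 3 h, with a relative change of 1.42 in U+actD, -1.08 in the UO scanner files and 0.29 in the UO table. Its name was chosen after its values were seen.

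The 6 beta subunits had the highest median of the subcomplexes at 3 h in U+actD, 1.29, against -0.93 in the UO scanner files and 0.65 in the UO table. Prosbeta7, a beta subunit without a proteolytic site, had spike-in scaled signals of 16744 at the pulse, 10956 at 1 h and 6338 at 3 h in U+actD. UO scanner signals were 6319, 3025 and 430. It kept 37.9% of the pulse at 3 h in U+actD, the most of any subunit on this scale, and 6.81% in UO.

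Prosbeta1, with the caspase-like site, had 14927, 5439 and 3210 at the pulse, 1 h and 3 h in U+actD, and 2845, 1399 and 202 in the UO scanner files. Prosbeta5, with the chymotrypsin-like site, had 25437, 7803 and 2679 in U+actD, and 1979, 971 and 120 in UO. Prosbeta5 was the lowest core subunit in U+actD, with a relative change of 0.13 at 3 h, and had -1.13 in the UO scanner files and 0.30 in the UO table.

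The other subunit with a proteolytic site, Prosbeta2, had a relative change at 3 h of 1.52 in U+actD, -0.67 in the UO scanner files and 1.35 in the UO table. The subunits with a site spread widely in U+actD, with 0.13 for Prosbeta5, 1.16 for Prosbeta1 and 1.52 for Prosbeta2. The 3 beta subunits of the name rule without a site had 1.29 (Prosbeta3), 1.29 (Prosbeta6) and 1.98 (Prosbeta7). Prosbeta4, also without a site but missed by the rule, had 0.26 in U+actD. The probes of Prosbeta2 differed by 1.08 in U+actD at 3 h, the largest gap of the 17 subunits with 2 probes.

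In the regulatory base, the 5 ATPases measured had a median relative change at 3 h of 0.95 in U+actD, -0.19 in the UO scanner files and 0.49 in the UO table. Rpt4 had spike-in scaled signals of 25159 at the pulse, 11222 at 1 h and 6541 at 3 h in U+actD, and 3529, 2451 and 302 in the UO scanner files. Rpt1 had 21968, 6673 and 2616 in U+actD, and 1363, 1177 and 196 in UO. Rpt4 had the highest relative change of the regulatory subunits at 3 h in U+actD, 1.43, and Rpt1 the lowest of the ATPases, 0.31, while in the UO scanner files Rpt1 had 0.11 and Rpt4 -0.63.

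The base scaffold Rpn2 had 48115, 14452 and 5330 at the pulse, 1 h and 3 h in U+actD, and 2511, 1809 and 234 in the UO scanner files. It had the lowest estimate of the base over both series, -0.15 ± 0.41 (SE). One of its probes was saturated on 1 array, with 93% of pixels at the limit, and no other subunit had a saturated probe. With saturated probes left out the estimate for Rpn2 was -0.39. The ubiquitin receptor Rpn10, named after its values were seen, had 0.17 in U+actD, -0.24 in the UO scanner files and -0.42 in the UO table, and kept 91.7% of its pulse signal at 1 h in the UO scanner files.

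The 8 lid subunits had the lowest median of the subcomplexes in U+actD at 3 h, 0.54, with -0.19 in the UO scanner files and 0.36 in the UO table. Rpn8, listed as Mov34, had spike-in scaled signals of 23930 at the pulse, 6056 at 1 h and 3681 at 3 h in U+actD, and 3149, 2168 and 393 in UO. Rpn3, listed as Dox-A2, had 52217, 15642 and 7319 in U+actD, and 7875, 3315 and 558 in UO. Rpn8 kept the least of any subunit at 1 h in U+actD, 25.3%, and 60.8% of that at 3 h, against 48.4% for the median subunit. Its relative change at 3 h was 0.68.

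Rpn6, a lid scaffold subunit, had 32150, 9022 and 4011 in U+actD, and 2937, 1807 and 363 in the UO scanner files, and it had the median estimate of the lid over both series. Rpn5, another scaffold subunit of the lid, had 15378, 4985 and 1365 in U+actD, and 882, 530 and 85.3 in UO. Its relative change at 3 h was -0.12 in U+actD, one of 2 subunits below 0, with -0.46 in the UO scanner files and 0.49 in the UO table. Rpn11, the deubiquitinase of the lid, had 0.65 in U+actD, -0.57 in the UO scanner files and 0.54 in the UO table.

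Rpn7 stood apart from the other subunits, and was picked out after its values were seen. Its spike-in scaled signals were 15600 at the pulse, 4564 at 1 h and 1127 at 3 h in U+actD, and 399, 799 and 93.5 in the UO scanner files. By the UO scanner files it reached 200.2% of the pulse at 1 h, the only subunit above 100% there, whereas in the UO table it stood at 66.3%. It kept 7.23% at 3 h in U+actD, the least of any subunit. Its relative change at 3 h was -0.41 in U+actD, 0.82 in the UO scanner files and -0.80 in the UO table, so that it was the lowest subunit in U+actD and in the UO table and the highest in the UO scanner files. It was measured by 1 probe, and its UO pulse signal was the lowest of the 29.

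The order of the subunits in U+actD was closer to that of the UO table than to that of the UO scanner files. Across the 29 subunits the relative change at 3 h in U+actD had a Spearman's rho of 0.44 with the UO table and -0.48 with the UO scanner files. The values at 1 h were 0.59 and -0.36. Over all 7779 genes the directions were the same. There the values were 0.50 and -0.25 at 3 h, and 0.38 and -0.09 at 1 h. The UO table and the UO scanner files had a rho of -0.34 at 3 h. These describe genes that share arrays and are not independent replicates.

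Whether a subunit's decay slope differed between the series was tested with the term of series by chase hours, after both series had been given the same trimmed mean ratio. Here the difference between the series was itself the effect tested. Its error came from the departure of that difference from a straight line over the chase hours and from the variance of other genes. No replicate entered these p-values. On the scanner signals 28 of 29 estimates were above 0, meaning a slower loss in U+actD, with a median of 0.38 log2 per hour against -0.01 for all genes. The exception was Rpn7, at -0.36 ± 0.26 (SE, adjusted p = 0.452). One member was called, Prosbeta7, with 0.90 ± 0.24 (SE, adjusted p = 0.0432 by limma), where 3.31% of genes were called higher and 1.78% lower. The 2 probes of Prosbeta7 differed in size, with relative changes at 3 h of 1.55 and 2.40 in U+actD. In the UO scanner files they had -1.16 and -0.76. At an unadjusted p under 0.05, 12 of 31 members were higher and 0 lower, against 11.8% and 10.5% of all genes. Prosbeta6 had 0.85 ± 0.24 (adjusted p = 0.0509), and the smallest difference was that of Rpt1, 0.06 ± 0.24.

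The call depended on the processing. No member was called from the authors' table, and Prosbeta7 had 0.29 ± 0.27 (SE, adjusted p = 0.939), where 1.87% of genes were called higher and 0.861% lower. That table holds only 1 of the 2 Prosbeta7 probes, the one with 1.55 in U+actD on the scanner signals. With normexp background correction, an alternative chosen after seeing the data, 9 members were called, all higher: Prosalpha3, Prosalpha5, Prosalpha6, Prosalpha7, Prosbeta1, Prosbeta2, Prosbeta6, Prosbeta7 and Rpt4. Of these, 8 are core subunits. Under that correction 6.9% of all genes were called higher and 7.88% lower.

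**Figure D4:**
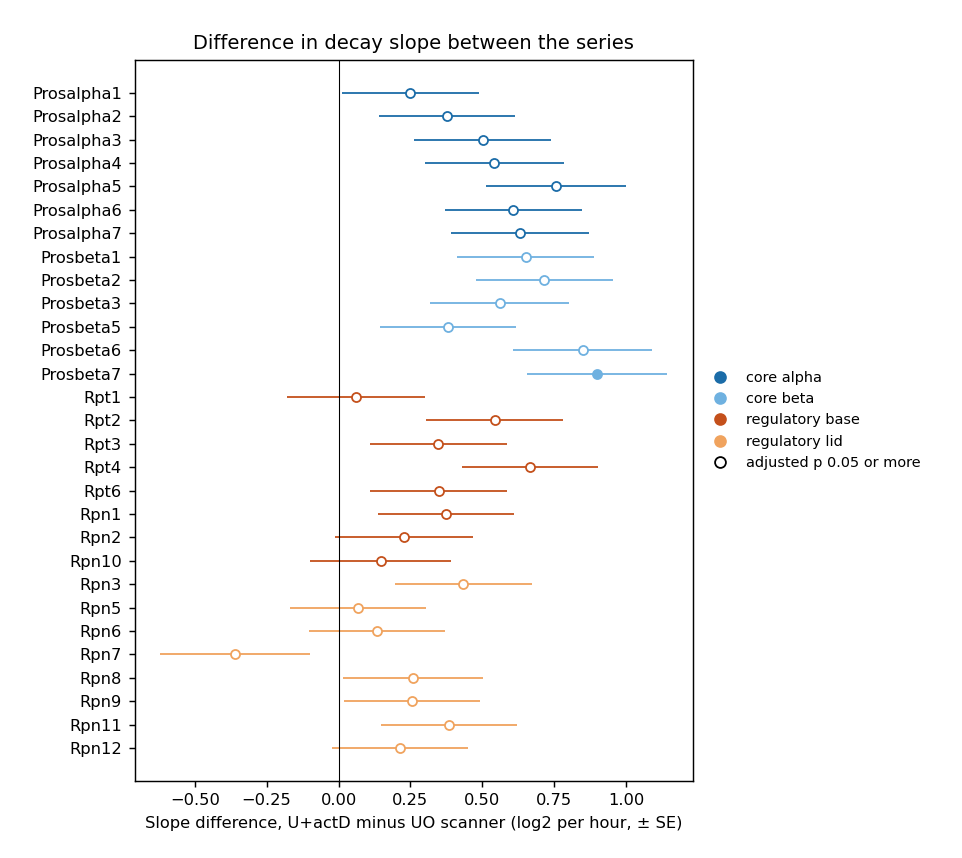
Slope difference of each of the 29 broadly used subunits, U+actD minus UO scanner (log2 per hour), as the limma estimate with its SE as a bar, filled where the adjusted p was under 0.05. All points except Rpn7 lie right of 0, Prosbeta7 at 0.90 is the only filled point, and core subunits lie mostly right of the lid subunits.

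The relative change at 3 h was higher in U+actD than in the UO scanner files for 28 of 29 subunits, against 52.6% of all genes, and higher in the U+actD than in the UO columns of the authors' table for 24 of 29, against 53.2%. All 13 core subunits and 7 of 16 regulatory subunits were above the median gene on both U+actD chases and below it on both UO scanner chases, against 16.7% of all genes. With the values of the UO table, 0 of 29 subunits had this pattern, against 5.48% of all genes.

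Half-lives were estimated per series from the natural log of the spike-in scaled signal over 0, 1 and 3 h, and were kept at an adjusted R2 of at least 0.75. In U+actD 24 of 29 subunits passed, with a median of 69.6 min against 54.2 min for all genes that passed. The core median was 77.6 min and the regulatory median 65.9 min, and the values ran between 48.9 min for Rpn7 and 131 min for Prosbeta7. In the UO scanner files 28 of 29 passed, with a median of 50.3 min against 58.2 min for all genes, a core median of 46.5 min and a regulatory median of 53.7 min. These values ran between 40.9 min for Prosbeta6 and 60.9 min for Rpt1. The deposited table, scaled by its authors, gave medians over the subunits that passed of 90.2 min in U+actD (24 subunits) and 82.1 min in UO (18 subunits). A half-life from 3 arrays has 1 residual degree of freedom, and no test was made on it.

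The copy genes were near background. Apart from Prosalpha1R, the 13 copies had net signals between 32 and 492 at the U+actD pulse, where the threshold was 354, and between -28 and 59.8 at the UO pulse, where it was 51. Of the 13, 6 were above background on no array, 3 on 1 array, 3 on 2 arrays and 1 on 4 arrays. With a threshold that 5% of negative control spots exceed, single values just above it carry little weight. The 29 broadly used subunits had net signals of at least 3100 at the U+actD pulse and at least 399 at the UO pulse.

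Rpt3R, a copy of the ATPase Rpt3, had net signals of 492, 349 and 77 at the pulse, 1 h and 3 h in U+actD, and 9, 50 and 14 in UO. Rpt6R had 410, 174 and 102 in U+actD as the mean of its probes, and 59.8, 51.3 and -4 in UO. Prosbeta2R2 had 410, 166 and 38.5 in U+actD, and 20, 34 and 45 in UO. All 3 were above the U+actD thresholds at the pulse and at 1 h, and of them Rpt6R, with 1 of its probes, also exceeded the UO thresholds at the pulse and at 1 h.

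Prosbeta4R2 had 357 at the U+actD pulse and 51 at the UO 3 h chase, each just above its threshold, and 92, 23, 15 and 19 elsewhere. Rpn12R was above background only at the U+actD 1 h chase, with 196, Prosbeta4R1 only at the UO 1 h chase, with 56, and Prosalpha4T2 only at the UO pulse, with 1 of its probes. Rpt6R was the only one of the 13 to enter the tests. It was called lower at 3 h (-1.92 ± 0.70 SE, adjusted p = 0.00675 by limma), with its values set to the threshold at the U+actD pulse and at 3 h in both series, so the size of the estimate is set by that floor.

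Prosalpha1R was bright on all arrays, with net signals of 22885, 7537 and 3341 at the pulse, 1 h and 3 h in U+actD, and 1748, 2094 and 393 in UO. It is a near-identical copy of Prosalpha1, the UO files give its probe the name Prosalpha1, and signal from the 2 genes cannot be told apart. Its relative change at 3 h was 0.59 in U+actD and -0.86 in the UO scanner files, beside 0.55 and -0.33 for Prosalpha1.

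The subunits that the name rule missed were above background on all arrays. Rpt5 and Sem1 were on a list of further subunits and partners, and Prosbeta4 and Rpn13 were picked after the lists were set. Relative changes at 3 h in U+actD were 0.26 for the beta ring subunit Prosbeta4, 0.23 for the ATPase Rpt5, 0.30 for the ubiquitin receptor Rpn13 and 1.76 for the small lid subunit Sem1. UO scanner values were -1.20, -0.04, -1.29 and -1.28 in the same order, and those of the UO table were 0.68, 0.19, -0.0093 and 1.00, so that the direction in UO depended on the source for Prosbeta4, Rpt5 and Sem1. On the scanner signals Sem1 was called for a slope difference of 0.96 (adjusted p = 0.0287 by limma), the same direction as Prosbeta7.

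A list of further subunits and partners held 9 genes, of which 6 were tested beyond Prosalpha5. These 6 include the subunits Rpt5 and Sem1 given above. Relative to the median gene at 3 h 0 were called, and 1, Sem1, was called for slope, where 3.31% of all genes were called higher. The median relative change of the 6 was 0.35 in U+actD, 0.05 in the UO scanner files and 0.45 in the UO table. REG, the activator that caps the core in place of the regulatory particle, had 0.47 in U+actD, 0.50 in the UO scanner files and 0.44 in the UO table. Uch-L5, the deubiquitinase that binds Rpn13, had 0.67 in U+actD, -0.68 in the UO scanner files and 0.46 in the UO table. Of 5 regulators of proteasome genes, none was called relative to the median gene or for slope. Their median was 0.46 in U+actD, -0.58 in the UO scanner files and 0.13 in the UO table. The highest of the 5 in U+actD, maf-S, had 1.67, with -0.70 in the UO scanner files and 0.79 in the UO table. Its partner, the transcription factor cnc, had -0.50 in U+actD, 0.31 in the UO scanner files and -0.08 in the UO table. The direction in UO thus depended on the source for Uch-L5, maf-S and cnc. The 8 tested genes of the COP9 signalosome, a complex related to the lid, had 8 relative changes above 0 at 3 h in U+actD, with a median of 0.59, and 2 above 0 in the UO scanner files, with a median of -0.38, against 58.1% and 55.8% of all genes. By the UO table, 6 of 7 were above 0, against 55.2% of all genes, and the median was 0.50.

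Of the ubiquitin, E1 and E2 list, 11 of 13 genes were tested and 1 was called for slope on the scanner signals, the polyubiquitin gene Ubi-p63E (higher, adjusted p = 0.0170 by limma), where 3.31% of all genes were called higher. Its net signals were 60851, 63954 and 35617 at the pulse, 1 h and 3 h in U+actD, against 16048, 19526 and 2992 in UO. It was saturated on 2 arrays, so its call rests on values at the scanner limit and no size is given. The 7 tested genes of shuttles and the segregase had a median relative change at 3 h of 0.34 in U+actD, 0.12 in the UO scanner files and 0.18 in the UO table, with 0 called. The segregase ATPase TER94 had 1.24 in U+actD, 0.12 in the UO scanner files and 0.53 in the UO table. The shuttle factor Rad23 had -0.50 in U+actD, -0.45 in the UO scanner files and 0.18 in the UO table.

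The genes of other function most like Rpn6 over the 4 chase arrays, chosen from those detected on every array, were CG11670, Ravus and CG8128. Their mean absolute differences from it in relative change were 0.05 each (log2).

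Technical spread within arrays was smaller than the largest of these differences but not than the smallest. Duplicate spots of 20 subunit probes differed with an SD of 0.21 to 0.29 (log2) on the 6 arrays. For the 17 subunits with 2 probes, the relative changes of the probes at 3 h differed by a median of 0.31 in U+actD and 0.60 in the UO scanner files. The probes disagreed in sign for 1 subunit in U+actD and for 5 in UO. The largest gap in UO was that of Rpn9, 1.45.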

How the data were processed

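Tagged RNA of 6 embryo samples was hybridised to 1 single-channel Agilent array each. Per the file headers the deposited scanner files give the intensity of every spot (mean foreground, local background) and how many percent of its pixels were saturated. The authors also deposited a table of intensity values, without some spots, whose U+actD columns equal these signals times 1, 1.92 and 1.7664. How its UO columns were made was not settled. The tagging, purification and scanning were done by the authors, and spots were assigned to genes here, with 14546 probes named through the platform table and 6132 through the authors' gene name, under current RefSeq symbols. Another 11483 of 32162 probes had no gene and were not used.

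Net signals were averaged over the spots of a probe. A probe was kept if it exceeded the threshold in both series at some time point (14426 probes, 9671 genes), arrays were scaled within a series on 4 (U+actD) or 5 (UO) unsaturated spike-in transcripts, values below the threshold were set to it, and a gene was the mean log2 over its probes. Changes were tested with limma 3.58.1 under R 4.3.3 (lmFit, eBayes) over all 6 arrays with series and time in the model (2 residual degrees of freedom), with Benjamini-Hochberg adjustment over all genes at 0.05. For the slope term, which left 1 residual degree of freedom, the series were first matched on the mean ratio of chase to pulse, trimmed by 10% at each end. The model was tested on simulated data. The number of arrays limits the precision. For spike-in scale changes on the scanner signals, and for slopes from the authors' table, limma used a single variance pooled over genes. Summaries used scipy 1.17.1, numpy 2.4.6 and pandas 2.3.3 under Python 3.11.15.

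The members, gene lists and tests were chosen with earlier results of these data known. Named genes were, in each subcomplex, the members with the highest, median and lowest estimate at 3 h over both series, with Mov34, Dox-A2, copies above background on any array, calls that fewer than 5 members shared, and the largest and smallest slope difference. The authors' table, other scales, filters and background corrections, probe choices, the series block and each left-out array were tried as alternatives. Sequences of promoters and proteins were not used here.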

Additional observations from a re-analysis of the deposited data

Results flagged for a closer look

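The decay slope of Prosbeta7 differed between the series by 0.90 log2 per hour (U+actD minus UO scanner, adjusted p = 0.0432 by limma). From the authors' table, which holds 1 of its 2 probes, its difference was 0.29 ± 0.27 (SE).

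Several relative changes were above the median gene on both U+actD chases and below it on both UO scanner chases. This pattern was not tested, with 1 array per group, and 0 of 29 subunits had it with the UO table. By the authors' table the relative change at 3 h was still higher in U+actD than in UO for 24 of 29 subunits, against 53.2% of all genes. The difference at 3 h, U+actD minus UO scanner (log2), was 1.25 for the median of the 29 subunits, 2.08 for the core median and 0.82 for the regulatory median. Among the core subunits named by the rule it was 1.23 for Prosalpha2, 2.08 for Prosalpha7, 1.83 for Prosalpha4, 2.94 for Prosbeta7, 2.06 for Prosbeta1 and 1.26 for Prosbeta5. Among the lid subunits it was 0.47 for Rpn6 and 1.45 for Rpn3. The brightest 25% of all genes at the pulse had a median relative change at 3 h of -0.12 in U+actD and -0.49 in the UO scanner files. The part of brightness in these differences was not tested.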

How the results depend on the processing

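No paired analysis was possible by replicate number because each group had 1 array and the labels give none, but the model paired pulse and chase arrays within a series through its series block. The call of all 31 members as lower at 3 h went to 0 with the 75th percentile scale and 0 without the series block, as did the calls of all genes, and leaving out each array in turn gave 27 to 31, with 27 without the UO 3 h chase array. The count relative to the median gene at 3 h ran between 0 and 1 with an array left out (1 without the UO pulse array, where 7.91% of all genes were called higher), and the other counts relative to the median gene and at 1 h stayed at 0. The single slope call went to 0 in the authors' table, to 0 among genes above background on all 6 arrays, where 0 genes in all were called, and to 9 with normexp, an alternative chosen after seeing the data. By the authors' table the members' median in UO was 0.57 at 1 h and 0.37 at 3 h, against -0.20 and -0.57 in the scanner files over the 31 members. Core minus regulatory in UO was 0.22 at 1 h and -0.030 at 3 h in the table, against -0.47 and -0.71. The medians and the core minus regulatory differences kept their sign under the other alternatives tried for them. The median half-life in the authors' table was 91.8 min in U+actD and 81.3 min in UO, and with the 75th percentile scale it was 253 min in UO, while no U+actD half-life reached the adjusted R2. The 75th percentile scale takes out a decline shared by most genes, so the calls and half-lives on it follow from that. The authors' U+actD values are the same signals, without some spots, times 1, 1.92 and 1.7664 at the pulse, 1 h and 3 h. The spike-in factors here were 1, 0.827 and 0.991 in U+actD, and 1, 0.408 and 0.326 in the UO scanner files. The cause of the other changes was not tested. UO values near the threshold of about 50 limit what can be read from dim genes.

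Estimates of the named subunits at 3 h over both series changed sign under the settings given here. In the authors' table Prosalpha4 had 0.43, Prosbeta5 0.26, Rpn2 0.62, Rpn5 0.22 and Rpn3 0.48, each negative on the scanner signals. Without the filter Prosalpha2 had -0.0046, Prosalpha7 -0.18, Prosbeta1 -0.16, Rpt1 -0.072 and Rpn6 -0.15. With normexp Prosalpha7 had -0.16, Prosbeta1 -0.081, Rpt1 -0.055 and Rpn6 -0.15. With the brightest probe Rpt1 had -0.011 and Rpn2 0.16. With an array left out, Prosalpha2 ran between -0.20 and 0.76, Prosalpha7 between -0.72 and 0.94, Prosalpha4 between -1.05 and 0.50, Prosbeta7 between -0.67 and 1.69, and Prosbeta1 between -0.68 and 0.94. Rpt4 ran between -0.46 and 1.26, Rpn2 between -0.50 and 0.19, Rpn8 between -0.12 and 0.71, Rpn6 between -0.052 and 0.33, and Rpn3 between -0.75 and 0.39.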
